A study of Caenorhabditis elegans with 3 samples.

Results

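The potassium channel genes of the nematode Caenorhabditis elegans were examined in whole larvae under 3 conditions. They were the genes named twk, kvs, kqt, irk, slo, shk, shl or kcnl with a number and read by at least 1 array probe set assigned to a single gene symbol. This rule gave 58 genes of 17118 on the array, comprising 42 twk, 5 kvs, 3 kqt, 3 irk, 2 slo, 2 kcnl and 1 shk gene. RefSeq lists 63 genes with such names; of the other 5, shl-1 and twk-48 were not analysed here, while kcnl-1, kcnl-2 and twk-44 lay on probe sets carrying several symbol entries. Where a gene had more than 1 probe set, which was so for 9 members, the one with the highest mean level over the arrays stood for it. For 11 members the probe set used was marked as possibly shared between transcripts. They were twk-5, twk-11, twk-16, twk-17, twk-31, twk-33, twk-42, twk-46, kvs-5, shk-1 and slo-2.

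All larvae were labelled N2 (Bristol), the wild-type laboratory strain, at the first larval stage (L1), and came from parents kept at 20 °C on Escherichia coli OP50 and synchronised by bleaching. The untreated group was the negative control. The bio-electrospray group was maintained like it and then jetted from a needle under an applied voltage, a method for placing living material in droplets. The heat shock group was held at 30 °C for 24 h and was the positive control; whether untreated larvae were kept for the same time is not given in the sources used here, so time and temperature cannot be told apart. Each group had 1 Affymetrix array. No difference below therefore has a replicate check, no p-value is given, and the number of arrays limits the precision.

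Potassium channels let potassium leave the cell and so pull the membrane back towards rest. Worms have a large set of them. The twk genes encode leak channels whose subunits carry a pair of pore loops and are open at rest. The shk, shl, kvs and kqt genes encode channels that open on depolarisation and end electrical signals, and the slo and kcnl genes encode channels coupled to intracellular ions such as calcium. The irk genes encode inward rectifiers. Most have been studied in neurons and muscle, where many are expressed in only a few cells.

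Most potassium channel genes gave little signal in these larvae. Levels are given on the log2 scale of the deposited values, and each was set against the median of its own array (3.15 for control, 3.16 for bio-electrospray and 3.19 for heat shock). In untreated larvae 17 of 58 members exceeded it (29.3%), against 49.6% of all genes. The numbers were 17 after bio-electrospray and 21 after heat shock (36.2%, against 49.6% of all genes). The same 17 were above the median on all 3 arrays, 4 more only on the heat shock array (twk-7, twk-17, twk-29 and twk-31), and 37 on none. The member levels ran from 2.10 to 7.12 on the control array. In whole larvae, RNA present in few cells and little RNA per cell cannot be told apart.

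**Figure D1:**
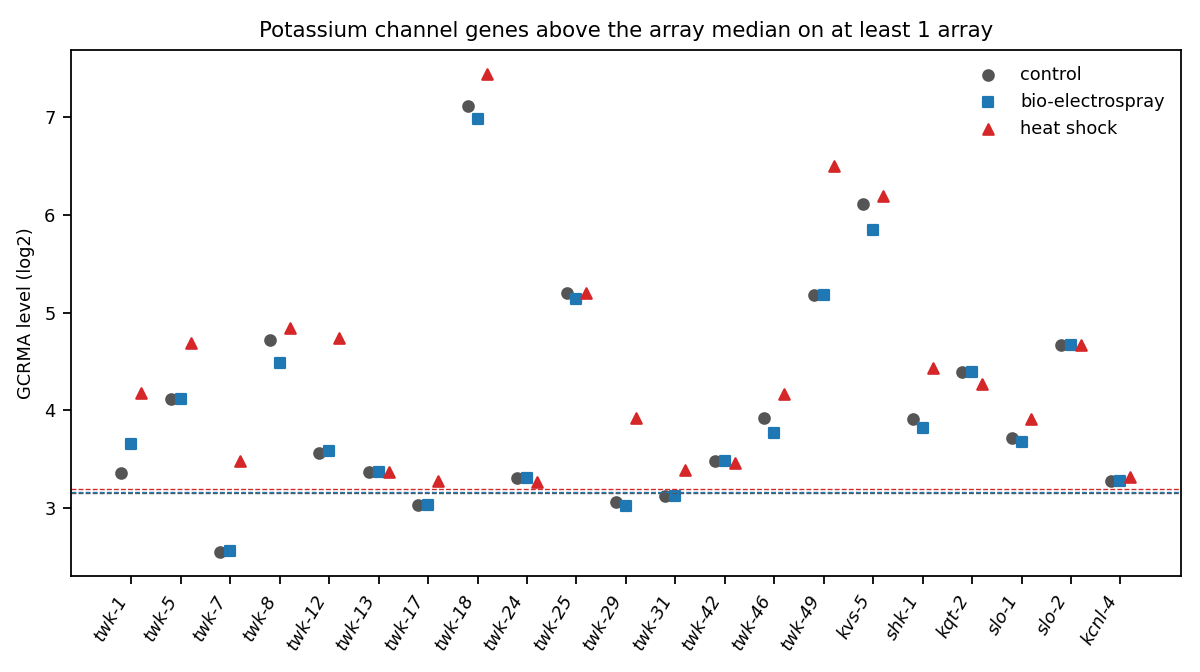
Level on the log2 scale (vertical axis) of the 21 potassium channel genes above the array median on at least 1 array, by gene (horizontal axis), with 1 point per array: control (circle), bio-electrospray (square) and heat shock (triangle). Dashed lines are the array medians. The control and bio-electrospray points lie close together for every gene, with twk-1 at 3.35 and 3.66, while the heat shock points of twk-49 and twk-12 lie more than 2-fold above both.

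By family, 15 of the 42 twk genes were above the median on at least 1 array, as were 1 of 5 kvs genes, 1 of 3 kqt genes, both slo genes, 1 of 2 kcnl genes and shk-1. None of the 3 irk genes was. The remaining 27 twk genes stayed below it throughout. Among the 37 members below the median everywhere, differences from control ran from 0 to 0.10 after bio-electrospray. After heat shock 32 of them lay within 0.1 of control. The exceptions were twk-30 (2.29 in untreated and 3.16 in heat-shocked larvae, a difference of 0.87), kvs-4 (0.26), twk-40 (0.22), twk-28 (0.14) and kqt-1 (−0.11). The twk-40 product is known to set the resting potential of command interneurons.

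Many of these values were exactly equal between arrays. On the bio-electrospray and control arrays 28 of 58 members (48.3%) had the same value, against 27.3% of all genes. For heat shock and control the shares were 20.7% and 13.6%. On all 3 arrays 8 members were equal (13.8%, against 9.36% of all genes), and 7 of these 8 lay below the medians; the other was slo-2, at 4.67 on each array. Equal values were not confined to dim genes. Of all genes above the median on at least 1 of both arrays, 28.7% were equal between bio-electrospray and control. For heat shock and control that share was 14.6%. A difference of exactly 0 is thus common in these deposited levels, and its part in the medians below was not tested.

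After heat shock 2 of the 42 twk leak channel genes, twk-49 and twk-12, were at least 2-fold above control. The family as a whole had a median difference of 0, with 17 genes above control, 17 below and 8 equal. Over all genes 27.8% were above control, 58.6% below and 13.6% equal, with a median of −0.02. Of the 42 twk genes, 27 lay below the median on every array. The largest negative difference among potassium channel genes was −0.12 (kqt-2). The largest difference was that of twk-49, at 5.18 in untreated, 5.18 in electrosprayed and 6.51 in heat-shocked larvae. The heat shock level stood 1.32 above both on the log2 scale (2.50-fold). The equal control and bio-electrospray levels are no replicate check, since 28.7% of all genes compared between those arrays were equal. The next was twk-12, at 3.56, 3.58 and 4.74 on the control, bio-electrospray and heat shock arrays, a difference from control of 1.18 (2.27-fold). Both encode leak channel subunits of the twk family. Among all genes compared, 94.7% had a smaller signed difference than twk-49 and 93.5% a smaller one than twk-12.

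These were the only members at least 2-fold apart, the size taken as a call. A gene entered a comparison where it was above the array median on at least 1 of both arrays. Of the 21 members that entered, 2 were at least 2-fold higher (9.52%), against 8.9% of 9010 genes, and 0 were at least 2-fold lower, against 8.24% of genes. With every gene counted whatever its level, the same 2 of 58 were higher (3.45%), against 4.69% of all genes, and 0 were lower, against 4.33%. The share of members called higher was thus near the background. After adding 16 to each level on the linear scale, a setting under which dim signals differ less, twk-49 was 2.04-fold and twk-12 was 1.54-fold higher.

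**Figure D2:**
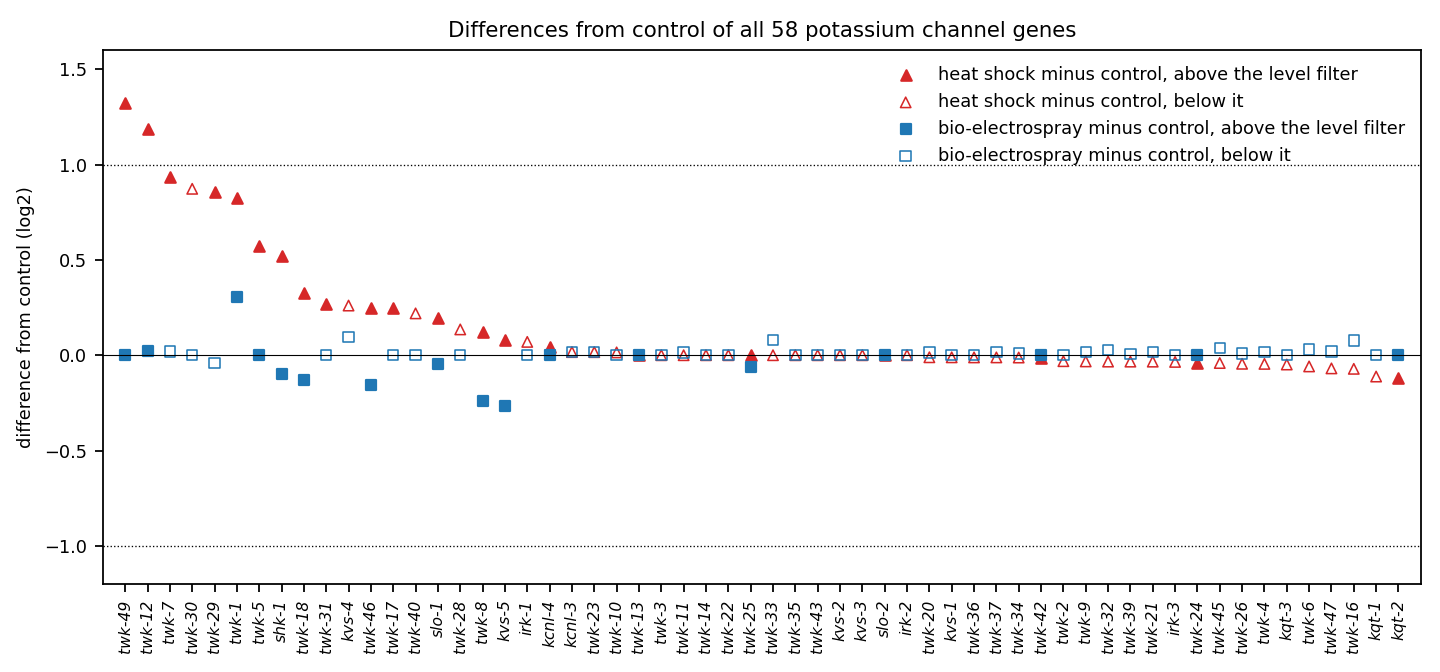
Difference from control on the log2 scale (vertical axis) of all 58 potassium channel genes, ordered by the heat shock difference (horizontal axis). Triangles show heat shock and squares bio-electrospray; filled symbols mark genes above the array median on at least 1 of both arrays, open symbols the rest, and dotted lines mark 2-fold. On the left twk-49 (1.32) and twk-12 (1.18) pass the upper line for heat shock, and no square passes either line.

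Below 2-fold, 3 further twk genes were at least 1.5-fold higher after heat shock. The twk-7 gene, whose product restrains the excitability of motor neurons, stood at 2.54 in untreated, 2.56 in electrosprayed and 3.48 in heat-shocked larvae, a difference of 0.93. For twk-29 the levels were 3.06, 3.02 and 3.92 in the same order (0.86 from control), and for twk-1 they were 3.35, 3.66 and 4.18 (0.83). In twk-29 and twk-7 the heat shock array alone was high, whereas in twk-1 the sprayed larvae lay between the others. In all, 5 of 21 members were at least 1.5-fold higher (23.8%), against 17.7% of all genes, and 0 were at least 1.5-fold lower, against 15%. Both twk-7 and twk-29 entered only through the heat shock array, so they could only have been counted as higher. With the offset of 16 the differences were 0.38 for twk-1, 0.35 for twk-29 and 0.31 for twk-7.

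Among the 17 members above the median on the control array, a choice that rests on the control level, 12 had a positive difference after heat shock, 3 a negative one and 2 none. Their median was 0.12. Of the 8495 genes above the median on the control array, 40.1% had a positive and 44.5% a negative difference, with a median of 0. Quantile normalization left 10 of the 17 positive and turned the number of negative ones to 7, with a median of 0.08, against 39.4% and 60.5% of all these genes. With loess centring 12 were positive and 5 negative, against 51.5% and 48.5% of all these genes. Over all 58 members the median difference was 0, with 24 positive and 22 negative. Over the 17118 genes it was −0.02, with 27.8% positive and 58.6% negative. Apart from twk-30, the members more than 0.3 above control were all among the 21 above the array median on at least 1 array. Both twk-7 and twk-29 were among the 21 only through their heat shock level, so this overlap was partly built in. The spike-in probe sets, 18 probe sets that read transcripts added during the assay, had a median of −0.53 (range −1.07 to −0.15) between the heat shock and control arrays; its part in these differences was not tested.

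The other twk genes above the median differed less. The twk-18 channel of body wall muscle is known for a current that grows with temperature. It stood at 7.12 on the control array, 6.99 after bio-electrospray and 7.45 after heat shock, which is 0.33 (1.25-fold) above control, and its second probe set gave 6.50, 6.26 and 6.76 (0.25). In both probe sets the order of the arrays was the same, with heat shock highest and bio-electrospray lowest. The twk-5 difference was 0.57, from 4.12 on the control and bio-electrospray arrays to 4.69, and its second probe set gave 0.42. Small positive differences were measured for twk-31 (0.27), twk-46 (0.25), twk-17 (0.25) and twk-8 (0.12). There was 0 difference for twk-25, and twk-13 (0.0016), twk-42 (−0.02) and twk-24 (−0.04) were close to it.

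Among the shk, kvs and kqt members, shk-1 showed the largest heat shock difference. The shk-1 product is the Shaker-type channel that repolarises body wall muscle and some neurons. Its levels were 3.91 on the control array, 3.81 after bio-electrospray and 4.43 after heat shock, 0.52 (1.43-fold) above control. The probe set of shk-1 was marked as possibly shared between transcripts. Of the kvs genes only kvs-5 was above the array medians, at 6.11, 5.84 and 6.19 in the same order, with a heat shock difference of 0.08. The dim kvs-1, kvs-2 and kvs-3 differed by −0.01, 0 and 0, and the kvs-1 channel is known from chemosensory and other neurons. The kqt genes encode KCNQ-type channels, which damp excitability; kqt-2 and kqt-3 are known to act in the intestine on the defecation rhythm. All 3 were lower by small amounts, kqt-2 by −0.12 (4.39, 4.39 and 4.27), kqt-1 by −0.11 and kqt-3 by −0.05. The other kqt-2 probe sets, below the median on every array, each differed by −0.03. The second kqt-1 probe set, also below it, differed by 0.

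The channels coupled to intracellular ions differed little. The slo-1 gene encodes the BK channel that limits transmitter release at nerve terminals. It stood at 3.71 in untreated, 3.67 in electrosprayed and 3.91 in heat-shocked larvae, a heat shock difference of 0.19. For slo-2, which encodes a related channel, the brightest probe set read 4.67 on every array, but the second gave 4.31, 4.30 and 4.63, a difference of 0.33 after heat shock. Of the small-conductance channel genes, kcnl-4 differed by 0.04 (3.27, 3.27 and 3.31) and kcnl-3 by 0.02. The irk genes differed by 0.07 (irk-1, known from the egg-laying motor neurons), 0 (irk-2) and −0.04 (irk-3), all below the array medians.

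**Figure D3:**
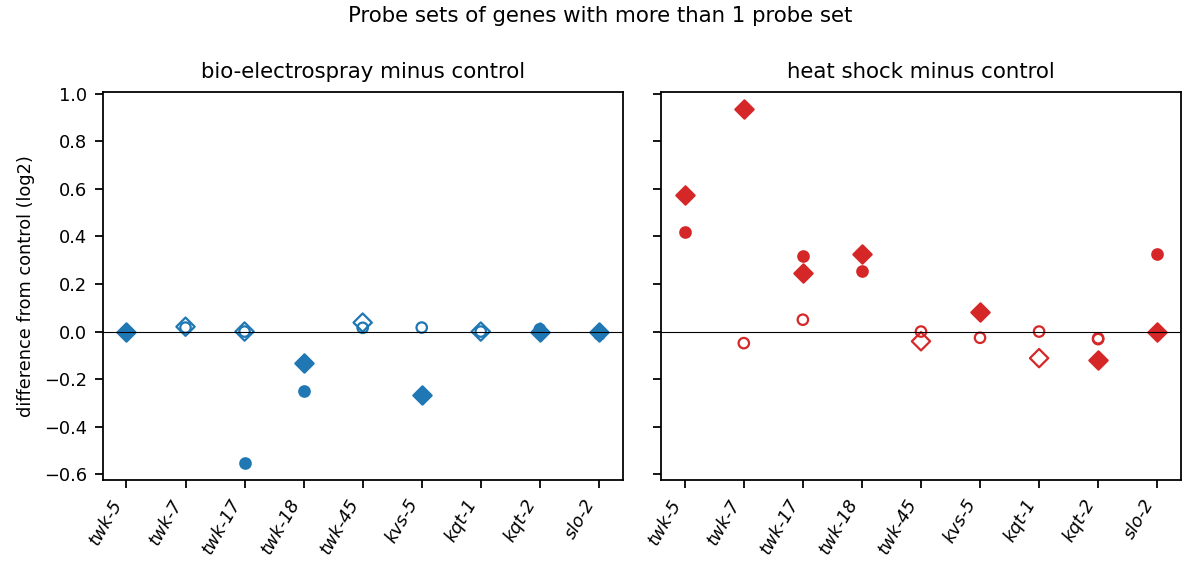
Difference from control on the log2 scale (vertical axis) of every probe set of the 9 members with more than 1, for bio-electrospray (left) and heat shock (right). Diamonds mark the probe set that stands for the gene, circles its other probe sets, and filled symbols those above the array median on at least 1 of both arrays. After heat shock the probe sets of twk-18 (0.33 and 0.25) and twk-5 (0.57 and 0.42) lie close together, while those of twk-7 (0.93 and −0.05) lie apart; after bio-electrospray 1 twk-17 probe set lies at −0.55.

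Probe sets of 1 gene did not always give the same difference. The second twk-7 probe set was below the median on every array and differed by −0.05 after heat shock, against 0.93 for the first. The 3 twk-17 probe sets, all marked as possibly shared between transcripts, gave 0.25, 0.32 and 0.05. Across the array, the difference between 2 probe sets of 1 gene had an SD of 0.44 in heat shock against control (2024 genes) and 0.16 in bio-electrospray against control (1947 genes). The twk-49 and twk-12 genes are each read by 1 probe set, so their differences could not be checked in this way. This SD measures spread between probes, not between cultures.

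After bio-electrospray no potassium channel gene was 1.5-fold apart from control. The largest positive difference was that of twk-1 (0.30, 1.23-fold), and the largest negative one that of kvs-5 (−0.27, which is 1.20-fold lower). Of 17 members compared, 0 were at least 2-fold higher, against 0.255% of 8613 genes, and 0 at least 2-fold lower, against 0.0464%. At 1.5-fold the counts were again 0, against 0.813% of genes higher and 0.581% lower. With so low a background, 0 of 17 is not a result about these genes.

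The counts by sign depended on the scaling, through the members whose deposited values were equal. Of the 17 brighter members, 7 were below control, 2 above and 8 equal to it; of all 8613 genes compared 37.1% were below, 34.2% above and 28.7% equal. With quantile normalization 10 of the 17 were above and 7 below, against 63% and 36.4% of all genes compared. With loess centring 3 were above and 14 below, against 46.1% and 53.9%. The 7 below control and the 2 above kept their signs in both settings, while the 8 equal ones took small differences. Over all 58 members 22 were above control, 8 below and 28 equal in the deposited values, against 52.2%, 20.5% and 27.3% of all genes. Next to kvs-5 came twk-8 (−0.24; 4.72, 4.48 and 4.84 on the control, bio-electrospray and heat shock arrays) and twk-46 (−0.16; 3.92, 3.76 and 4.17). Then came twk-18 (−0.13, with −0.25 in its second probe set), shk-1 (−0.10), twk-25 (−0.06) and slo-1 (−0.04). In all 7 the bio-electrospray array was the lowest of the 3, which was partly built in because they were chosen as below control. Of the 17, 13 were higher after heat shock than after bio-electrospray, against 41.1% of all genes above the control array median. The middle 95% of all genes compared lay between −0.38 and 0.33, and every member lay inside that range. The median over the 17 was 0, as it was over all genes compared.

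The twk-17 value depended on the probe set. Its 3 probe sets had mean levels close to each other, and the one with the highest mean read 3.03 on both the control and bio-electrospray arrays. The probe set with the highest single level read 3.18, 2.63 and 3.50 on the control, bio-electrospray and heat shock arrays, a difference of −0.55 after bio-electrospray, and the remaining one gave 0. The second kvs-5 probe set, below the median on all arrays, gave 0.02 where the first gave −0.27. Median spike-in difference was −0.19 (range −0.48 to 0.01) between these arrays, of the same sign as the 7 small differences; its part in them was not tested.

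Set against the bio-electrospray array, the heat shock array gave the same 2 calls. This comparison shares its heat shock array with the one against control, so the values are not independent. The twk-49 difference was 1.32 and that of twk-12 was 1.16. Of 21 members compared, 2 were at least 2-fold higher, against 8.8% of 9024 genes, and 0 lower, against 7.73%. At 1.5-fold 5 were higher, against 18.2% of genes, and 0 lower, against 14.1%. The 5 were twk-49, twk-12, twk-7 (0.91), twk-29 (0.90) and shk-1 (0.62), while twk-1, higher on the bio-electrospray array than on the control array, differed by 0.52.

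Potassium channels with other names gave mostly small differences. The list held sup-9, egl-23 and unc-58 of the leak channel family, the ERG-type unc-103, the EAG-type egl-2, the Shaw-type egl-36 and exp-2, which repolarises pharyngeal muscle. Of these 7 genes 4 entered the heat shock comparison and none was 1.5-fold apart, against 17.7% of all genes higher and 15% lower. With only 4 genes, that count is not a result about them. After heat shock exp-2 was 0.53 above control and 0.81 above bio-electrospray (3.68, 3.40 and 4.21 on the control, bio-electrospray and heat shock arrays). From control, egl-23 differed by 0.16, sup-9 by 0 and unc-58 by −0.19 (4.25, 3.86 and 4.05). The dim unc-103, egl-2 and egl-36 differed by 0, 0 and −0.02. After bio-electrospray unc-58 differed by −0.39 and exp-2 by −0.28, and the other 5 by 0 to 0.01.

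Of 8 genes on the array for proteins that assemble with potassium channels, 2 were at least 2-fold higher after heat shock, ctn-1 and mps-2. They have 3 and 5 probe sets, and the values given are those of the brightest of each. The 5 that passed the filter were all above control, with a median of 0.94 (0.59 over all 8). Among all genes compared 43.5% were above control. Of the 5, 2 passed 2-fold and 4 passed 1.5-fold, against 8.9% and 17.7% of all genes. The alpha-catulin gene ctn-1, whose product places the BK channel in muscle and neurons, stood at 5.24 in untreated, 5.05 in electrosprayed and 6.34 in heat-shocked larvae (1.096). The mps-2 gene, which encodes a single-pass accessory subunit of voltage-gated channels, stood at 7.06, 7.10 and 8.13 (1.07) in the same order, on a probe set marked as possibly shared between transcripts. For islo-1, an adaptor that ties the BK channel to muscle dense bodies, the levels were 5.03, 4.91 and 5.97 (0.94). The heat shock array was the high one in each of these 3 genes, and all 3 were above the median on every array.

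The sup-9 leak channel of muscle is known to work with the products of unc-93, sup-10 and sup-18. After heat shock sup-18 was 0.62 above control (3.73, 3.73 and 4.34) and unc-93 was 0.57 above it (4.02, 3.81 and 4.59), while sup-9 read 3.49 on every array. The dim sup-10, mps-1 and mps-3 differed by 0.08, 0.17 and −0.13. After bio-electrospray the 5 brighter accessory genes lay between −0.21 (unc-93) and 0.03 (mps-2), with a median of −0.13. None was 1.5-fold apart, against 0.813% of all genes higher and 0.581% lower, a background too low for this to be a result.

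**Figure D4:**
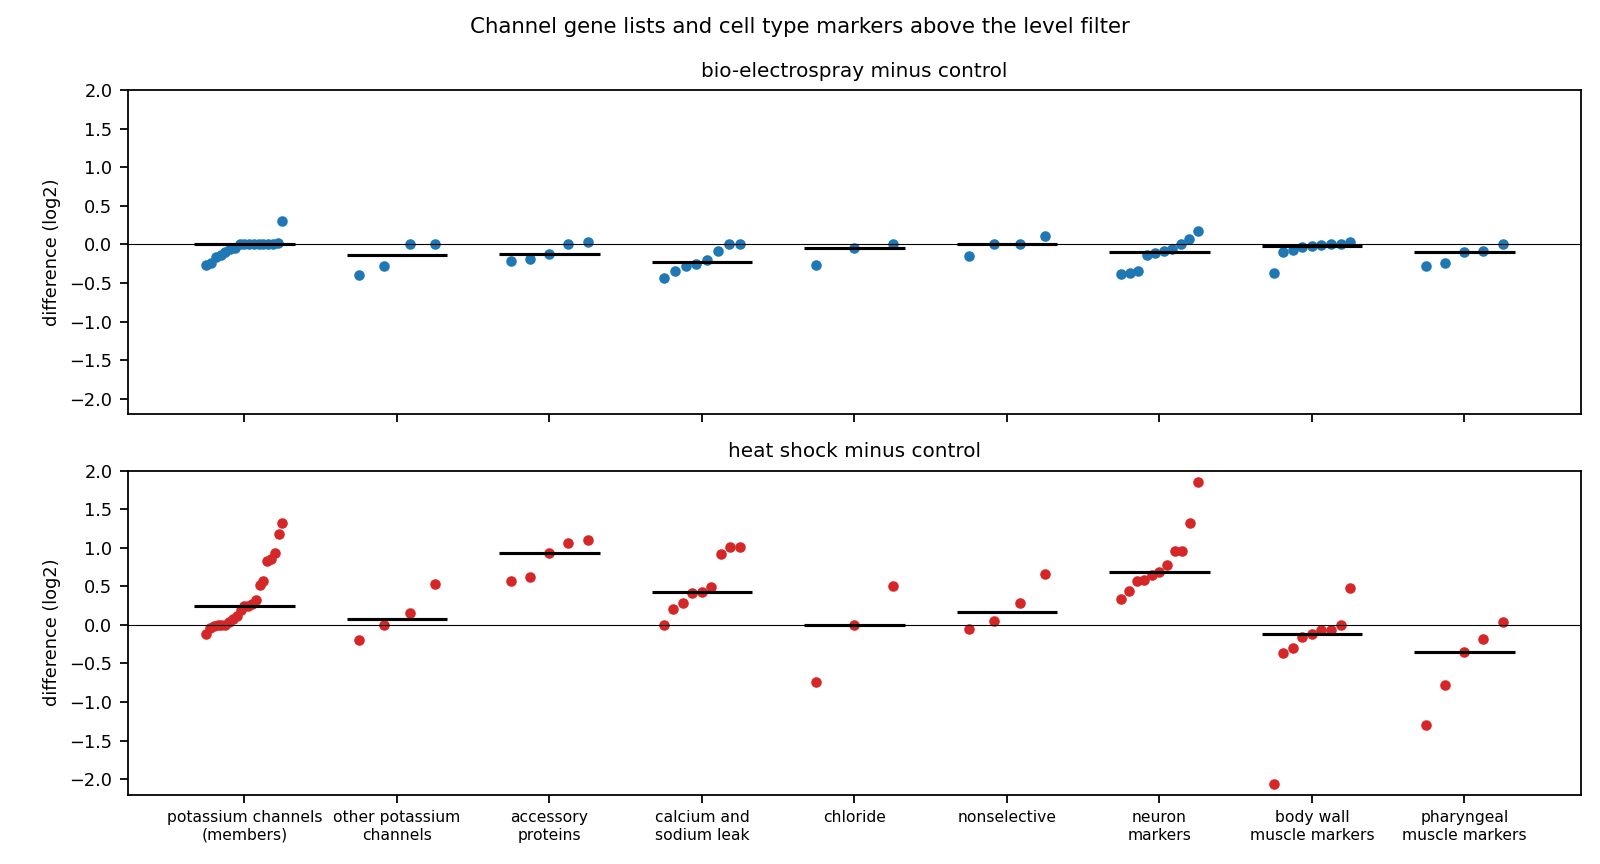
Difference from control on the log2 scale (vertical axis) for bio-electrospray (top) and heat shock (bottom), with 1 point per gene above the array median on at least 1 of both arrays and a bar at the median of each list (horizontal axis). After heat shock the 5 accessory protein genes lie between 0.57 and 1.096 and the 11 neuron markers between 0.33 and 1.85, while the potassium channel genes run from −0.12 to 1.32.

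Of the voltage-gated calcium and sodium leak channel genes, 9 of 11 on the array entered the heat shock comparison, with 8 above control and 1 equal to it and a median of 0.43; nlf-1 entered only through the heat shock array. The P/Q-type calcium channel gene unc-2 (4.23, 4.14 and 5.23 on the control, bio-electrospray and heat shock arrays) and unc-79, a subunit of the sodium leak channel complex (4.11, 3.91 and 5.12), were 1.01 and 1.004 above control. These 2 were the ones at least 2-fold higher, and with quantile normalization 0 were. Of all genes compared 8.9% were at least 2-fold higher and 43.5% were above control. Of the sodium leak complex, unc-80 was 0.91 above control. After bio-electrospray 6 of 8 were below control and 2 equal, with a median of −0.23 and the lowest at −0.43 (tag-180, a calcium channel subunit). Of 6 chloride channel genes of the CLC kind 3 entered; clh-5 was −0.73 and clh-4 0.50 from control after heat shock, and clh-1 was equal on both arrays. Of 13 nonselective and mechanosensory channel genes 4 entered, with a median of 0.16 and only gtl-1 (0.66), a channel gene of the intestine, 1.5-fold higher. Of all genes compared 17.7% were at least 1.5-fold higher. None of these lists had a member 1.5-fold apart after bio-electrospray, against 0.813% of all genes higher and 0.581% lower. With so low a background, that is not a result about these lists.

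Markers of the cells that carry most of these channels differed in direction after heat shock. Of 12 neuron markers 11 entered and all 11 were above control, with a median of 0.69 and a range of 0.33 to 1.85; 2 were at least 2-fold higher, egl-21 and egl-3, whose products mature neuropeptides, and sng-1 entered only through the heat shock array. Of all genes compared 43.5% were above control and 8.9% at least 2-fold higher. The summed linear level of the 12 was higher by 1.05 on the log2 scale, and unc-31 was below the median on every array. The 9 body wall muscle markers had a median of −0.11 (range −2.07 to 0.47; a median of 0 with quantile normalization), and their summed level was lower by −0.14. For the 5 pharyngeal muscle markers the median was −0.35 and the summed level −0.74. After bio-electrospray the medians were −0.10 for neuron, −0.02 for body wall muscle and −0.09 for pharyngeal muscle markers. The neuron markers thus lay above control on the same array as twk-49, twk-12 and the accessory genes, and their part in those differences was not tested.

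The markers of other tissues were present too. After heat shock the median was −0.06 for 6 intestine markers, −0.67 for 6 hypodermis markers and −1.002 for 6 germline markers above the filter, and after bio-electrospray the 3 medians were 0.09, 0.01 and −0.03.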

How the data were processed

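Biotin-labelled RNA amplified from 200 ng of total RNA of whole larvae was read on 1 Affymetrix array per group, per the labels' protocols. The deposited values are GCRMA levels, per the submitters' processing notes; version, options and genome build are not given in the sources used here. The deposited levels were taken as log2, from their range and because GCRMA writes log2 values. GCRMA usually corrects background from probe sequence and normalizes by quantiles, which places dim probe sets on a common floor.

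Of 22625 probe sets, 20766 had 1 gene symbol in the platform annotation (887 several, 972 none), covering 17118 genes; all 58 member symbols matched RefSeq (assembly WBcel235). Log2 levels were subtracted for 3 comparisons. Genes were compared where either array showed them above its median (percentile 50), and 2-fold and 1.5-fold differences counted. No test was possible with 1 array per group. Counting was tested on simulated data. Members, gene lists and marker lists were chosen with earlier results of these data known.

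Named were all kvs, kqt, irk, slo, shk and kcnl members, twk genes above the median on any array, members 2-fold apart, the other potassium channels and accessory genes, and 2-fold members of other lists; further names, such as dim twk genes, clh and unc-80, were chosen after their values were seen. Alternatives covered quantile, median and loess centring (span 0.3), level filters, an offset of 16, probe set choice and fold thresholds of 1.5 and 3. Columns of no sample numbered 0. Python 3.11.15, numpy 2.4.6, pandas 2.3.3, scipy 1.17.1, statsmodels 0.14.6 and matplotlib 3.10.9 were used.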

Additional observations from a re-analysis of the deposited data

How the results depend on the processing

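Across the alternatives, 100 of 111 recomputed counts and medians stayed within set bounds. The bounds were 1.5 times for counts and the 95% order-statistic interval over genes for medians. That interval was wide (0.0016 to 0.57 for heat shock against control), and counts of 0 had little room to change. The number within bounds is therefore not a measure of robustness. The number of members at least 2-fold higher, 2 in both heat shock comparisons, was 1 with a filter at the 75th percentile and 1 with the offset of 16, because twk-12 then no longer counted; it was 5 at 1.5-fold and 0 at 3-fold. Without the level filter the median difference was 0 in both heat shock comparisons, since the 37 dim members then enter. With the filter it was 0.25 (heat shock against control) and 0.35 (heat shock against bio-electrospray). Of the members that passed, 4 did so only through the heat shock array, so their differences could only be positive. Over the 17 members above the median on the control array the medians were 0.12 and 0.35. With quantile normalization the bio-electrospray median was 0.0004 in place of 0, as equal values then differ slightly. Taking the probe set with the highest single level, an alternative chosen after seeing the data, set twk-17 at −0.55 after bio-electrospray. No count of members at least 2-fold lower left 0 in any alternative run. Among single genes, 619 of 633 recomputed differences moved by less than the SD between probe sets of 1 gene or stayed 2-fold apart. The dim probe sets of twk-1, twk-7 and twk-29 moved with the offset, and kvs-5 after bio-electrospray was 0.02 without shared probe sets. No paired analysis was possible because each group has 1 array. Signal close to the floor limits what can be said of the 37 dim members; a low level there does not show that a gene was silent.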

Other observations

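Some potassium channel probe sets lay outside the comparisons because the annotation gives them more than 1 symbol entry. The probe set of kcnl-2, a small-conductance channel gene with a known part in egg laying, carried its symbol under 2 gene records and read 3.59 for control, 3.38 for bio-electrospray and 3.59 for heat shock. The control and heat shock levels were thus equal and bio-electrospray was lower by −0.21. The probe set of kcnl-1, likewise entered under 2 records, read 3.57, 3.58 and 3.71 in the same order. A probe set shared by twk-44 and spp-30 stayed below the array medians, at 2.59, 2.61 and 2.58. With these probe sets added, 2 members were still at least 2-fold higher after heat shock and the median over 23 was 0.19.

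In the RefSeq gene order 1 pair of members, twk-21 and twk-22, were next to each other among protein-coding genes. Both were below the median on every array, with heat shock differences of −0.03 and 0.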
